A study of Mus musculus with 8 samples.

Results

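A set of 9 genes of the circadian clock was followed in brain RNA of Akap11 conditional knockout (cKO) mice and of control mice. They were chosen by name: Clock, Per2, Per3, Cry1, Cry2, Nr1d1, Nr1d2, Dbp and Tef. All 9 were found by symbol among the 57186 Ensembl genes listed for each library, and all 9 passed the filter on low counts. The study compared 4 libraries of Akap11 cKO brain with 4 libraries of control brain, and each library's group came from its title. The protein made from Akap11 anchors protein kinase A within the cell. The tissue label gives brain with no region. The sources used here give no recombinase line, targeted exons, age, sex, collection time or light schedule. They also do not say whether the libraries came from separate mice, so every p-value below rests on differences among libraries, which may be technical.

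The mammalian clock is a loop of transcription in nearly every cell, brain included. CLOCK pairs with BMAL1 (gene symbol Arntl) and binds E-boxes in the Per and Cry genes, whose products then inhibit that pair. The same pair drives Nr1d1 and Nr1d2, which encode the REV-ERB repressors of Arntl, and Dbp and Tef, which encode activators acting at D-boxes. In mouse tissues kept on a light cycle, Dbp, Tef, Nr1d1, Nr1d2, Per3 and Per2 peak from the later part of the day to the early night, Cry1 peaks later, and Arntl, Npas2 and Clock peak near the opposite phase. The relative levels of these genes in one sample therefore change with the hour of collection.

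Promoter sequences are shown for the members that hold a searched clock motif and for Dbp, against which the other genes are set further on. RefSeq promoters (GRCm38.p6, 250 bases before to 50 after a gene's start) were held for 8 of the 9 members (all but Per2), with 11 starts in all. The sequences are in lower case with motif matches in capitals, 5′ to 3′ on the strand of the gene.
Per3 (chr4:151044616-151044915, minus strand): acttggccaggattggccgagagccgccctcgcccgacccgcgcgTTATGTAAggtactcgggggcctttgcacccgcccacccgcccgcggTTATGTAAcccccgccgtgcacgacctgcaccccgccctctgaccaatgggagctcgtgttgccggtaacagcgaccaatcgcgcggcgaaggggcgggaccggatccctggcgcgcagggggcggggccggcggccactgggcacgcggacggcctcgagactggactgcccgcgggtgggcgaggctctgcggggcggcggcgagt
Cry1 (chr10:85185005-85185304, minus strand): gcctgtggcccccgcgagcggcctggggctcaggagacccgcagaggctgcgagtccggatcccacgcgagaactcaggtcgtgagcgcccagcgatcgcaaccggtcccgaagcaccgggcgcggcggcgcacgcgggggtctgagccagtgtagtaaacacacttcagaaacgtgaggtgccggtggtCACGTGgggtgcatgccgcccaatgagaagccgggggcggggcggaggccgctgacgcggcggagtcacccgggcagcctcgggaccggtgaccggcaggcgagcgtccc
Tef, upstream start (chr15:81802423-81802722, plus strand): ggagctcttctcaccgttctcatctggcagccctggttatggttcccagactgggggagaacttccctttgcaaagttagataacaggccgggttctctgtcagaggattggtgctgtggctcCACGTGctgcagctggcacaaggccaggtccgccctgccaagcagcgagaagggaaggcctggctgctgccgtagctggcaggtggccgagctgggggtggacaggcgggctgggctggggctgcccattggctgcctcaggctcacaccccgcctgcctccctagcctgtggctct
Tef, downstream start (chr15:81811164-81811463, plus strand): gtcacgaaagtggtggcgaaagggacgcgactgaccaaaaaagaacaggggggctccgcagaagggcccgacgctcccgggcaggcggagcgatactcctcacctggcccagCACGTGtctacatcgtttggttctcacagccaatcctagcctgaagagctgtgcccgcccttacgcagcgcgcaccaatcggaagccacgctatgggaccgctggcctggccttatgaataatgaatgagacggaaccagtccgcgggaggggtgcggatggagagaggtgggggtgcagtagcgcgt
Dbp (chr7:45704997-45705296, plus strand): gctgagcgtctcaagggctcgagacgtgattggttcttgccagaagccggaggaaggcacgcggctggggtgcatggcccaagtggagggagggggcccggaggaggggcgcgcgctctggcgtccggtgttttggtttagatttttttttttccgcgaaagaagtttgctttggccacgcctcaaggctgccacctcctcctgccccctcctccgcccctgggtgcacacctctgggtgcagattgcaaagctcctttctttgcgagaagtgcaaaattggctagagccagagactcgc
The E-box was searched as CACGTG, the D-box as TTATGTAA, TTACGTAA, TTATATAA or TTACATAA, and the core of the element bound by ROR and REV-ERB proteins as TAGGTCA or TGGGTCA, each on both strands. None of these motifs overlapped another in the sequences shown. Per3 held a pair of D-boxes, 205 and 158 bases before its start. Cry1 held an E-box 60 bases before its start, and Tef held an E-box at each of its starts, 127 and 138 bases before them. The E-box was thus present in 2 of the 8 members and the D-box in 1, while 7.15% and 1.59% of all 32851 promoters of the same length held them. The ROR core was in 0 of the 8 members and in 6.45% of all promoters. These are matches of letters in a short window, not measured binding. Members were counted by gene over their 11 starts and the background by promoter, so the shares differ in unit. A gene with several starts had more chances to match.

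Levels are given as CPM, the reads of a gene per 1000000 reads in genes, with TMM scaling between libraries. Reads in genes numbered 13841218 to 19991942 per library. The share of all listed reads that lay in genes was 63.8% in cKO replicate 1 and 73.7% to 79.7% in the other libraries. Reads entered as ambiguous made up 10.1% in cKO replicate 1 and 5.14% to 6.16% in the others. Reads not aligned made up 10.4% there and 3.31% to 6.66% in the others. Reads of too low alignment quality made up 7.18% there and 2.15% to 4.04% in the others. On principal components of log2 CPM, cKO replicate 1 lay apart from the rest on the first and control replicate 1 on the second. The deviation of a gene in cKO replicate 1 from its mean over all libraries followed the GC content of its longest transcript (Spearman's rho 0.665 across 10331 genes with a mean of at least 10 CPM). For GC content, rho was 0.366, -0.264 and -0.434 in cKO replicates 2 to 4, and -0.344, -0.191, -0.325 and -0.0075 in control replicates 1 to 4. For transcript length, rho ranged from -0.308 (cKO replicate 2) to 0.326 (control replicate 1). These correlations run across genes, which are not independent of each other. Markers fitted the brain label: those of neurons (Snap25, Syt1, Rbfox3, Slc17a7 and Gad1) summed to 5650 to 6084 CPM in cKO and 5703 to 6186 CPM in control libraries. The liver gene Alb was at 0 reads in all libraries. Apoa2, also a liver gene, stood at 0.15 to 0.66 CPM in cKO and 0.37 to 0.83 CPM in control libraries. Avp, Vip and Hcrt were listed as markers of suprachiasmatic and hypothalamic neurons. They summed to 39.5 to 48.3 CPM in cKO and 39.4 to 42.5 CPM in control libraries. Vip gave most of this sum (27.7 CPM in cKO replicate 1 and 24.7 CPM in control replicate 1). Which cells gave the Vip reads was not tested, so the sum does not gauge suprachiasmatic or hypothalamic content. Markers of astrocytes (Gja1, Slc1a2, Aldh1l1 and Slc1a3) summed to 2752 to 3378 CPM in cKO and 3282 to 3835 CPM in control libraries. Most of the sum came from Slc1a2 (2032 CPM in cKO replicate 1 and 3033 CPM in control replicate 1). In cKO replicate 1, lowest in the sum, Gja1, Slc1a2 and Slc1a3 were each at their lowest. Aldh1l1 was at its highest there (56.9 CPM). None of the 10 marker lists had a gene past the adjusted edgeR test, which only 0.0239% of all genes passed. The lists of astrocytes, microglia and endothelial cells each had 1 gene at an unadjusted p under 0.05 (edgeR), as 4.78% of all genes did. The microglia marker P2ry12 stood at 25.6 to 29.6 CPM in cKO and 31.0 to 35.3 CPM in control libraries. Groups were separate for 2.96% of all genes, and those of the microglia markers Cx3cr1 and Csf1r overlapped. The cerebellar markers Pcp2 and Gabra6 summed to at most 1.53 CPM in cKO and 5.08 CPM in control libraries.

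Akap11 itself checked the labels. It stood at 220, 214, 237 and 240 CPM in cKO replicates 1 to 4, against 373, 312, 315 and 291 CPM in control replicates 1 to 4, and the groups did not overlap, as for 2.96% of all genes tested (1.39% with cKO lower, 1.57% with cKO higher). It fell by 29.3% in cKO brain (-0.50 on the log2 scale with an SE of 0.069; edgeR, adjusted p 0.0103). The edgeR adjusted p was 0.104 without cKO replicate 2 and 0.0616 without control replicate 2. The counts cover the whole gene, reads outside the deleted part included.

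None of the 9 clock genes passed the test between cKO and control brain, and none differed by more than Cry1, at -0.099 on the log2 scale. The edgeR test passed 0 of the 9 at an adjusted p under 0.05, where 0.0239% of the 16766 genes tested passed, and 0 of the 9 reached an unadjusted p under 0.05, where 4.78% of genes did. DESeq2 called 0 of the 9 adjusted and 0 unadjusted. Its backgrounds of 0.0124% and 2.25% were taken over 32200 genes, without the filter on low counts, so they are not on the same base. For limma voom the calls were 0 and 0, with backgrounds of 0.0239% and 4.5% of the 16766 genes. The edgeR adjusted p ranged from 0.889 to 0.974. The groups overlapped for all 9, against the 2.96% of genes with separate groups. Of the 9 log2 fold changes, 6 were positive and 3 negative, with a median of 0.020, against a median of 0.0033 and 51.2% positive over all genes. The 95% intervals of the 9 lay between 0.820-fold and 1.23-fold. In bulk RNA, fewer cells of a type and less RNA per cell cannot be told apart.

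**Figure D1:**
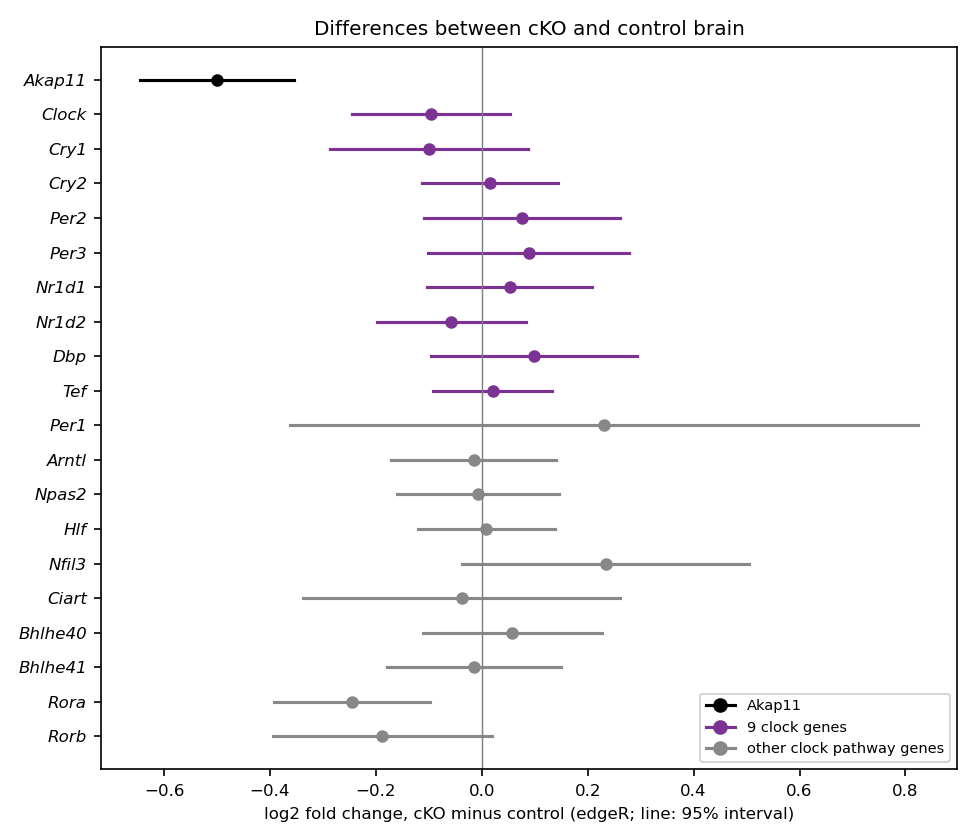
Log2 fold changes (cKO minus control, edgeR) with 95% intervals for Akap11, the 9 clock genes and 10 other genes of the clock pathway. The intervals of all 9 clock genes cross 0, and the interval of Akap11 lies between -0.64 and -0.35.

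Clock (ENSMUSG00000029238, chromosome 5), the activator that pairs with BMAL1, had a lower mean in cKO brain within the spread of the libraries. It stood at 97.6, 103, 116 and 117 CPM in cKO replicates 1 to 4, against 129, 115, 113 and 106 CPM in control replicates 1 to 4. The highest value was that of control replicate 1 and the lowest that of cKO replicate 1, with the other libraries mixed. Its log2 fold change was -0.096 (SE 0.071, 95% interval -0.24 to 0.053). The two-sided exact permutation p, over all 70 ways to assign the libraries, was 0.343. This test can give no p below 0.0286. Without both libraries that stand apart the log2 fold change was 0.0080. It was -0.036 when control replicate 1 was left out and -0.14 when control replicate 4 was.

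The cryptochromes, repressors of the CLOCK and BMAL1 pair, overlapped between the groups. Cry1 (ENSMUSG00000020038, chromosome 10) stood at 20.6, 21.5, 20.7 and 21.1 CPM in cKO replicates 1 to 4, against 25.8, 21.5, 23.0 and 19.7 CPM in control replicates 1 to 4. The cKO libraries lay close together, inside the range of the control libraries. Their SD of log2 CPM, 0.028, was below the 0.074 that read counting alone gives, so their closeness is no measure of a difference in spread. Cry1 had the largest difference in size among the 9 (log2 fold change -0.099, SE 0.090, 95% interval -0.29 to 0.088, exact permutation p 0.314). It was -0.025 without control replicate 1 and -0.16 without control replicate 4. Cry2 (ENSMUSG00000068742, chromosome 2) stood at 144, 133, 125 and 123 CPM in cKO replicates 1 to 4, against 128, 133, 122 and 136 CPM in control replicates 1 to 4. The groups covered nearly the same range, and the log2 fold change was 0.015 (SE 0.062, 95% interval -0.11 to 0.14, exact permutation p 0.800). Leaving out single libraries gave -0.034 (without cKO replicate 1) to 0.041 (without cKO replicate 4). An antisense gene, D930015M05Rik, overlaps 4.67% of the exon bases of Cry2. Its reads amounted to 1.15% of those of Cry2.

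The Period genes, whose products join the cryptochromes in the repressor complex, varied more between libraries. Per2 (ENSMUSG00000055866, chromosome 1) stood at 37.0, 28.6, 38.3 and 33.5 CPM in cKO replicates 1 to 4, against 31.8, 33.7, 30.2 and 34.4 CPM in control replicates 1 to 4. Both the highest and the lowest library belonged to the cKO group, and all control libraries lay between them. The log2 fold change was 0.075 (SE 0.089, 95% interval -0.11 to 0.26, exact permutation p 0.486). It was 0.012 without cKO replicate 3 and 0.16 without cKO replicate 2. Per3 (ENSMUSG00000028957, chromosome 4) stood at 45.6, 39.8, 49.7 and 51.3 CPM in cKO replicates 1 to 4, against 36.6, 45.9, 44.0 and 48.6 CPM in control replicates 1 to 4. Control replicate 1 was lowest and cKO replicate 2 next, and the other libraries of both groups were mixed. The log2 fold change was 0.088 (SE 0.091, 95% interval -0.10 to 0.28, exact permutation p 0.457). It was 0.16 without cKO replicate 2 and 0.016 without control replicate 1. Camta1 overlaps Per3 on the same strand with 0 shared exon bases.

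The REV-ERB genes differed in which libraries were high. Nr1d1 (ENSMUSG00000020889, chromosome 11), encoding REV-ERB alpha, stood at 101, 77.8, 89.0 and 90.6 CPM in cKO replicates 1 to 4, against 83.1, 87.1, 80.4 and 94.7 CPM in control replicates 1 to 4. Its highest and lowest libraries were cKO replicates 1 and 2, and its log2 fold change was 0.052 (SE 0.075, 95% interval -0.10 to 0.21, exact permutation p 0.600). With GC-content offsets it was -0.0040, and it was -0.014 without cKO replicate 1 and 0.12 without cKO replicate 2. Nr1d2 (ENSMUSG00000021775, chromosome 14), encoding REV-ERB beta, stood at 93.1, 98.6, 115 and 114 CPM in cKO replicates 1 to 4, against 110, 108, 111 and 109 CPM in control replicates 1 to 4. The control libraries lay within 1.02-fold of each other, whereas cKO replicates 1 and 2 lay below them and cKO replicates 3 and 4 above. The SD of log2 CPM in control libraries, 0.013, was below the 0.033 that read counting alone gives. The closeness of the control libraries is thus no measure of a difference in spread between groups. The log2 fold change was -0.058 (SE 0.067, 95% interval -0.20 to 0.083, exact permutation p 0.457). It was -0.0091 without cKO replicate 1, -0.11 without cKO replicate 3 and -0.0029 without both libraries that stand apart. The end of Nr1d1 overlaps Thra, a thyroid hormone receptor gene on the other strand, over 8.55% of its exon bases. Thra averaged 571 ± 26.8 CPM in cKO and 576 ± 26.2 CPM in control libraries (SD, n = 4 each). No source used here says whether the counts use strand, so reads of the shared stretch cannot be assigned to either gene.

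Dbp and Tef are outputs of the loop. Dbp (ENSMUSG00000059824, chromosome 7), an activator at D-boxes whose RNA swings widely over the day in mouse tissues, stood at 36.8, 29.2, 29.0 and 27.5 CPM in cKO replicates 1 to 4. In control replicates 1 to 4 it stood at 26.7, 26.4, 29.2 and 31.5 CPM. A single library, cKO replicate 1, lay above all others, and the rest of both groups were mixed. The log2 fold change was 0.098 (SE 0.093, 95% interval -0.097 to 0.29, exact permutation p 0.457). It was -5.1e-05 without cKO replicate 1, 0.15 without control replicate 4 and -0.025 without both libraries that stand apart. With GC-content offsets it was 0.0036. Tef (ENSMUSG00000022389, chromosome 15), a close relative of Dbp, stood at 370, 333, 350 and 361 CPM in cKO replicates 1 to 4, against 356, 349, 355 and 334 CPM in control replicates 1 to 4. It had the narrowest spread of the 9, and its log2 fold change was 0.020 (SE 0.054, 95% interval -0.093 to 0.13, exact permutation p 0.629). It was -0.0057 when cKO replicate 1 was left out and 0.048 when cKO replicate 2 was. Dbp overlaps Sphk2, a sphingosine kinase gene on the other strand, over 539 of its exon bases. Sphk2 averaged 29.2 ± 2.80 CPM in cKO and 26.4 ± 0.402 CPM in control libraries (SD, n = 4 each), a level like that of Dbp. Because the use of strand is not known, reads of this stretch cannot be assigned to either gene.

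**Figure D2:**
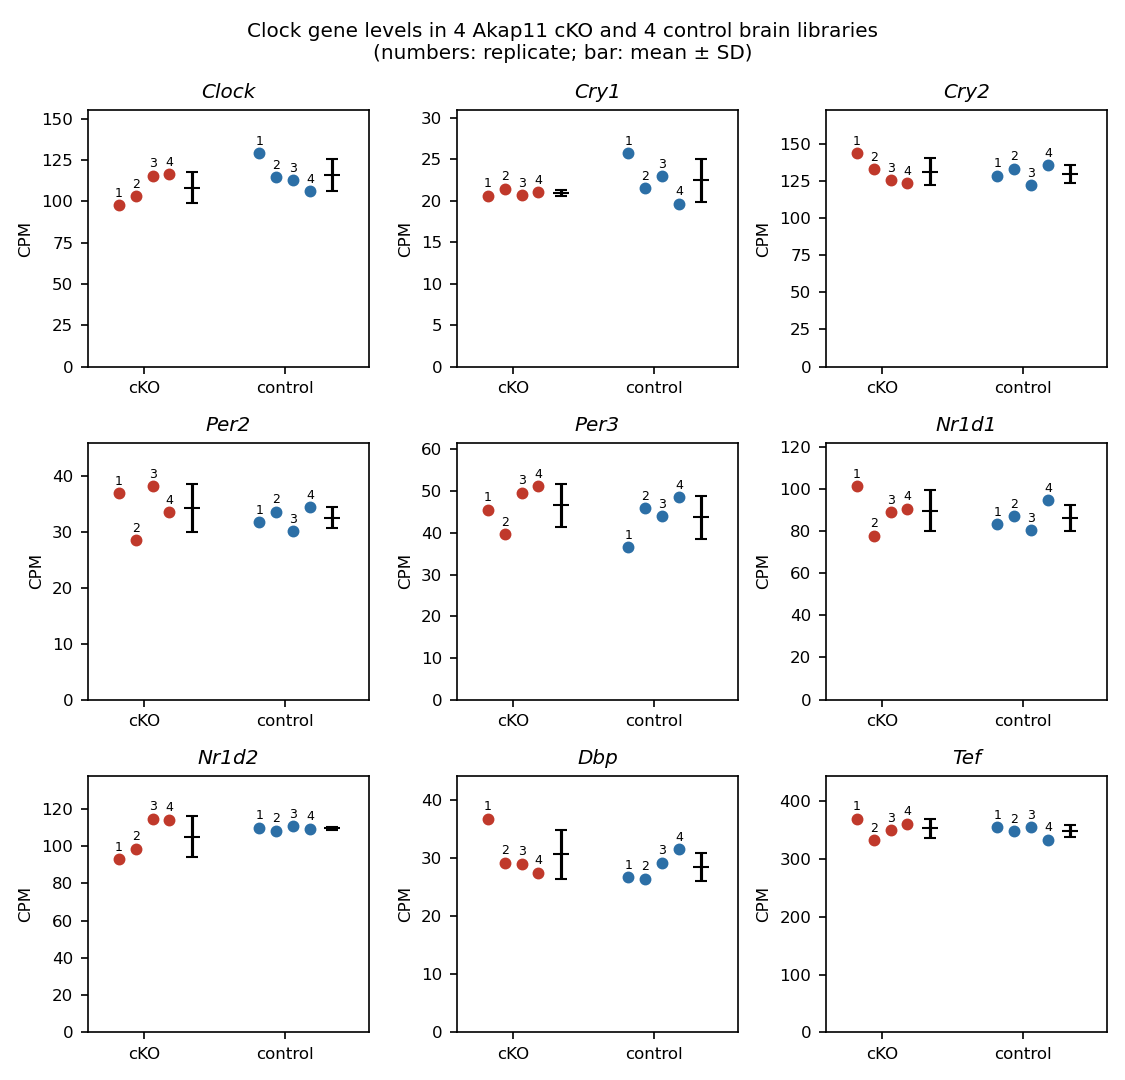
TMM-scaled CPM of the 9 clock genes in each of 4 cKO (red) and 4 control (blue) libraries, numbered by replicate, with mean ± SD in black. In every panel the points of both groups overlap, and cKO replicate 1 is the highest point for Dbp, at 36.8 CPM.

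Per length, the members spanned about an order of magnitude in the same order in both groups. CPM per kilobase of annotated exon was highest for Tef, at 44.9 ± 2.04 in cKO and 44.3 ± 1.31 in control libraries (SD, n = 4 each), followed by Nr1d1 at 29.1 ± 3.13 in cKO and 28.1 ± 2.02 in control. Cry2 (20.8 in cKO, 20.5 in control) and Nr1d2 (19.4 in cKO, 20.2 in control) came next, and their mean ± SD ranges overlapped in both groups. Dbp followed at 10.2 ± 1.39 in cKO and 9.51 ± 0.799 in control, then Clock at 7.89 ± 0.686 in cKO and 8.44 ± 0.712 in control. Cry1 (6.28 in cKO, 6.74 in control), Per2 (5.86 in cKO, 5.56 in control) and Per3 (4.85 in cKO, 4.55 in control) were lowest. Among these last 3, the mean ± SD ranges of neighbours overlapped in cKO but not in control libraries. Exon lengths came from GENCODE M21 and cover all isoforms, so genes with long rarely used exons are placed too low.

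The spread between libraries was described for each member and set beside that of genes of like level. From the lowest to the highest of all 8 libraries, the members differed by 1.11-fold (Tef) to 1.40-fold (Per3), with a median of 1.31-fold. The same range had a median of 1.36-fold over all genes tested. Set beside the 500 genes nearest in mean level, the within-group SD of a member was larger than that of 90.0% of them for Per3 and 82.4% for Nr1d1. For Clock, Per2 and Dbp this share was 81.6%, 80.4% and 80.2%. Nr1d2 exceeded 70.6% of its neighbours in level, Cry2 49.0%, Cry1 44.0% and Tef 19.4%. Read counting alone gives an SD of 0.018 (Tef) to 0.074 (Cry1) on the log2 CPM scale. This was less than the within-group SD of each member pooled over both groups, which ran from 0.056 (Tef) to 0.17 (Per3). In single groups, Cry1 in cKO (0.028) and Nr1d2 in control libraries (0.013) lay below the SD from read counting.

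**Figure D3:**
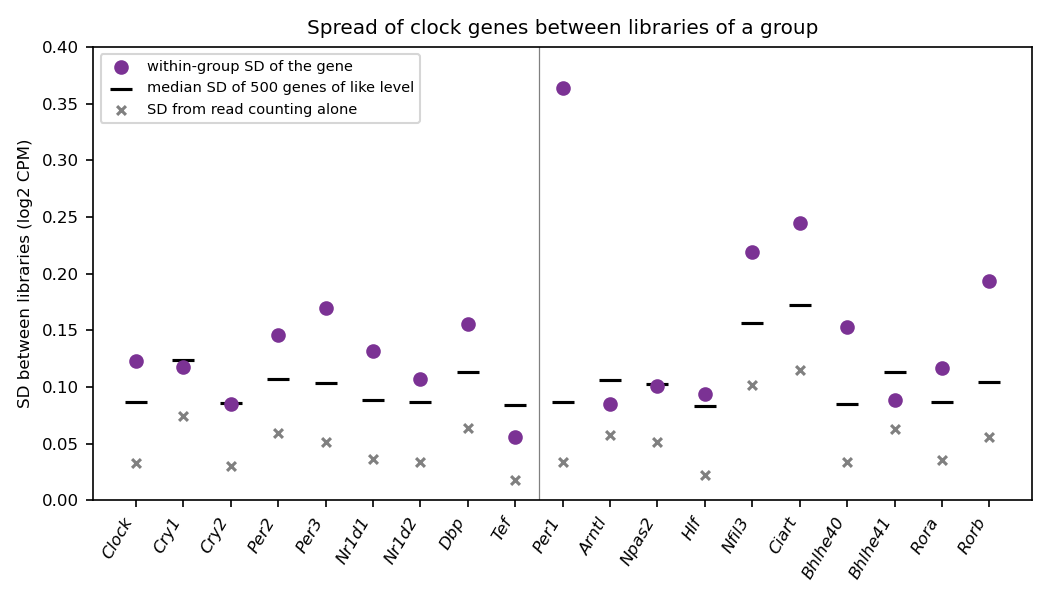
Within-group SD of log2 CPM (purple) for the 9 clock genes, left of the line, and 10 other clock pathway genes, with the median SD of 500 genes of like level (dash) and the SD from read counting alone (cross). Per3 has the largest SD of the 9, at 0.17, and Per1 the largest of those shown, at 0.36.

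The spread was set beside the composition of the transcripts. In cKO replicate 1, the members above their mean over the 8 libraries by the most were Dbp (0.32 on the log2 CPM scale, 61.6% GC) and Nr1d1 (0.21, 56.8% GC). Those below by the most in that library were Nr1d2 (-0.20, 41.8% GC) and Clock (-0.19, 40.9% GC). With GC-content offsets for each library, the range over the 8 libraries became 1.19-fold for Dbp, against 1.39-fold without them. It became 1.09-fold for Nr1d2, against 1.23-fold, and 1.22-fold for Clock, against 1.32-fold. The ranges of Per2 and Per3 were 1.37-fold and 1.37-fold with these offsets, close to the 1.34-fold and 1.40-fold without them. For Nr1d1 it was 1.25-fold with GC-content offsets, against 1.30-fold, and for Cry2 1.10-fold, against 1.18-fold. Cry1 widened to 1.36-fold, against 1.31-fold, and Tef to 1.12-fold, against 1.11-fold. With offsets for transcript length, added after seeing the data, the range of Clock was 1.18-fold and that of Nr1d2 1.21-fold. With these it was 1.36-fold for Dbp, 1.37-fold for Cry1, 1.41-fold for Per3, 1.31-fold for Per2, 1.30-fold for Nr1d1, 1.18-fold for Cry2 and 1.12-fold for Tef.

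Whether members moved together across libraries was read against Dbp, over 30 pairs (the 8 other members and 22 further clock genes), with exact permutation p-values over all orders of the 8 libraries. No pair passed after Benjamini-Hochberg adjustment, with a lowest adjusted permutation p of 0.223. Clock had Pearson's r of -0.83 with Dbp (exact permutation p 0.0116, adjusted 0.223) and Spearman's rho of -0.79 (p 0.0279, adjusted 0.551, exact permutation). Without cKO replicate 1 and control replicate 2, the libraries farthest from the median of Dbp, r was -0.81. With GC-content offsets it was -0.17. Nr1d1 had r of 0.66 (exact permutation p 0.0743, adjusted 0.223) and rho of 0.38 (exact permutation p 0.360), and r was 0.31 without those 2 libraries. It was 0.22 without cKO replicate 1 alone and 0.70 without control replicate 2 alone, so the relation rests on cKO replicate 1. With GC-content offsets its r was 0.62. Nr1d2, which shares the daytime phase of Nr1d1 in mouse tissues, had r of -0.70 (exact permutation p 0.0619, adjusted 0.223) and rho of -0.33 (exact permutation p 0.428). Its r was -0.21 without the 2 libraries, -0.14 without cKO replicate 1 alone, -0.74 without control replicate 2 alone and 0.22 with GC-content offsets.

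None of the other members passed either. Cry2 had r of 0.69 (exact permutation p 0.0570, adjusted 0.223) and rho of 0.33 (exact permutation p 0.428), with r of 0.53 without the 2 libraries and 0.053 with GC-content offsets. Its r was 0.21 without cKO replicate 1 alone and 0.83 without control replicate 2 alone. Cry1 had r of -0.51 and rho of -0.62 (exact permutation p 0.195 and 0.115), and r of -0.74 without the 2 libraries. Per2 had r of 0.39 and rho of 0.19 (exact permutation p 0.349 and 0.665), Per3 had r of 0.20 and rho of -0.024 (0.638 and 0.977), and Tef had r of 0.21 and rho of 0.071 (0.624 and 0.882). Without the 2 libraries these 3 values of r were 0.13, 0.40 and -0.75. With group means subtracted, Clock stood at -0.80, Nr1d1 at 0.63 and Nr1d2 at -0.66. Each group holds 4 libraries, too few for a correlation within it. Of the pathway genes plotted, Rorb, Rora and Arntl had r of -0.83, -0.73 and -0.66 with Dbp, and Nfil3 had r of 0.68. Their exact permutation p was 0.0249, 0.0411, 0.0741 and 0.0570 (each adjusted 0.223). With GC-content offsets these values of r were -0.53, -0.17, -0.41 and 0.042. Nfil3, added to the morning genes further on, thus had the sign opposite to that of Arntl. Hlf, a relative of Dbp and Tef, had r of -0.40 (exact permutation p 0.309, adjusted 0.579). Without the 2 libraries its r was -0.97 (exact permutation p 0.0028, adjusted 0.083), and with GC-content offsets it was -0.0098.

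**Figure D4:**
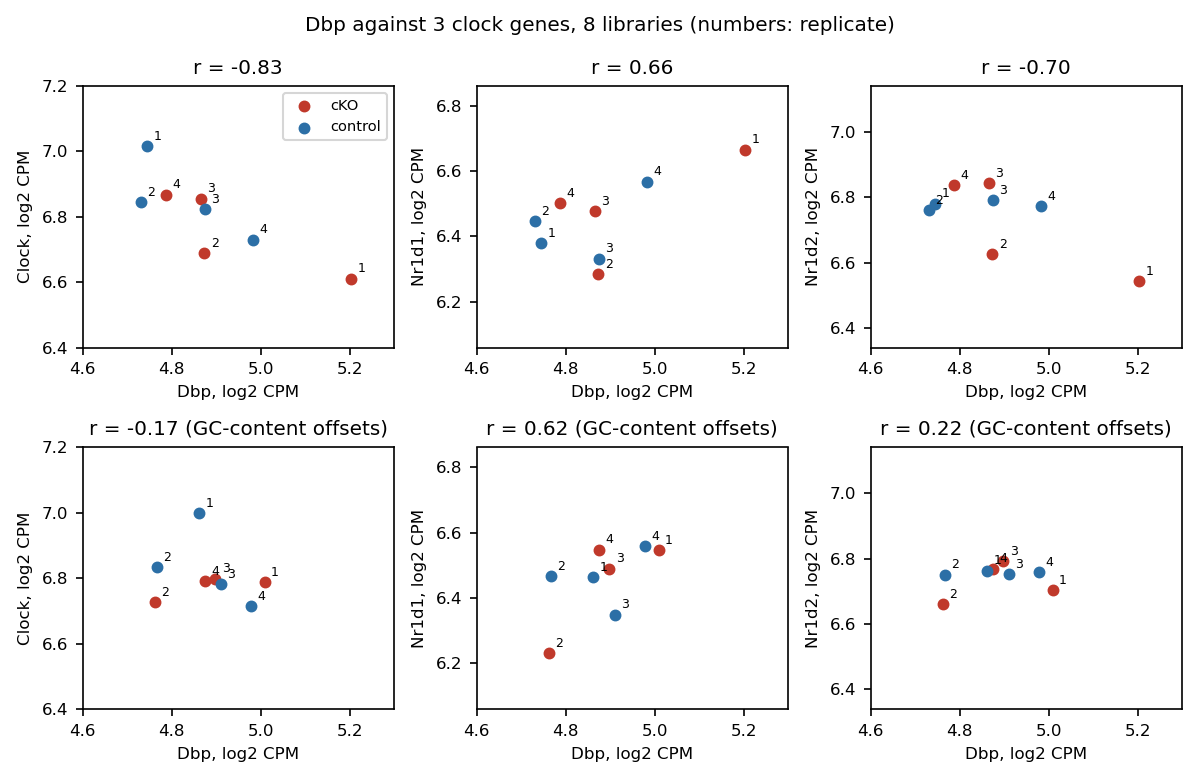
Log2 CPM of Dbp against Clock, Nr1d1 and Nr1d2 in 4 cKO (red) and 4 control (blue) libraries, numbered by replicate, as scaled (top) and with GC-content offsets (bottom). Pearson's r of Clock with Dbp is -0.83 as scaled and -0.17 with the offsets, and cKO replicate 1 is the rightmost point in each panel.

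A difference between evening and morning genes was formed for each library as a description with no test. It is the mean log2 deviation of Dbp, Tef, Nr1d1, Nr1d2, Per2 and Per3 minus that of Clock and Cry1. The names evening and morning are loose. Of Clock and Cry1, only Clock peaks near the opposite phase, while Cry1 peaks later than the evening genes. Cry2 was in neither set. It was 0.23, -0.065, 0.083 and 0.035 in cKO replicates 1 to 4, and -0.32, -0.034, -0.091 and 0.16 in control replicates 1 to 4. The lowest value was that of control replicate 1 and the highest that of cKO replicate 1, and the groups overlapped. With GC-content offsets cKO replicate 1 stood at 0.097 and control replicate 1, still lowest, at -0.27, while control replicate 4 was highest at 0.16. When Arntl, Npas2 and Nfil3 were added to the morning genes, the values were 0.099, -0.16, 0.077 and 0.067 in cKO and -0.20, 0.025, 0.012 and 0.075 in control replicates 1 to 4. The labels give no collection time, and its part in these values was not tested.

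**Figure D5:**
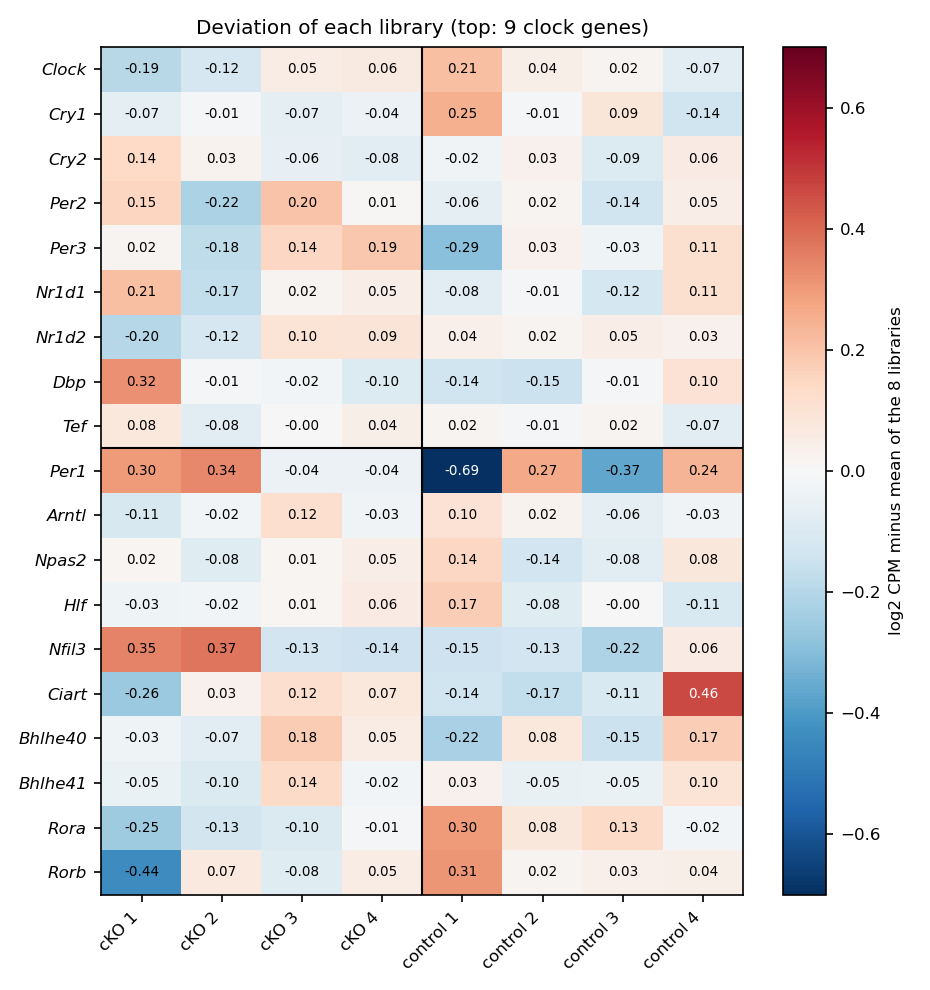
Deviation of log2 CPM in each library from the mean of the 8 libraries, for the 9 clock genes (above the line) and 10 other clock pathway genes, with cKO libraries left of control libraries. The largest deviation is that of Per1 in control replicate 1, at -0.69.

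Among the 22 other genes of the clock pathway, listed from general knowledge, 0 passed the adjusted edgeR test (0.0239% of all genes did) and 2 reached an unadjusted p under 0.05 (4.78% of all genes did). Both had lower means in cKO brain (1.91% of all genes were lower and 2.87% higher at this p). One of them was Rora, a nuclear receptor that activates Arntl. It stood at 87.9 ± 6.06 CPM in cKO and 104 ± 9.67 CPM in control libraries (SD, n = 4 each), a difference of -0.24 on the log2 scale (SE 0.071; edgeR, unadjusted p 0.00248, adjusted p 0.889). The groups overlapped for Rora. Its transcript is among the longest and poorest in GC of these genes (10.9 kb, 40.9% GC), and its log2 fold change was -0.21 with GC-content offsets, -0.18 with length offsets and -0.14 without both libraries that stand apart. Rorb, another receptor of this family, had a log2 fold change of -0.19 (SE 0.099). It was -0.096 without cKO replicate 1, -0.11 without control replicate 1 and -0.017 without both.

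Per1, the Period gene that also responds quickly to neuronal stimulation, had the largest spread of the members and the 10 other pathway genes plotted. It stood at 134, 137, 106 and 106 CPM in cKO replicates 1 to 4, against 67.2, 131, 84.4 and 128 CPM in control replicates 1 to 4. The range over the 8 libraries was 2.04-fold, and 1.85-fold with GC-content offsets. Its within-group SD exceeded that of 99.6% of the 500 genes nearest in level. Control replicates 1 and 3 were lowest, and the log2 fold change of 0.23 had a 95% interval from -0.36 to 0.82 (edgeR adjusted p 0.911). It was 0.078 without control replicate 1, 0.37 without control replicate 2 and 0.026 without both libraries that stand apart. Per3 was also lowest in control replicate 1, and Bhlhe40, encoding a repressor of CLOCK and BMAL1 targets, was lowest there too.

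The activator genes of the opposite phase lay close between groups. Arntl averaged 36.0 ± 2.43 CPM in cKO and 36.5 ± 1.83 CPM in control libraries (SD, n = 4 each), with a log2 fold change of -0.015 (95% interval -0.17 to 0.14). Npas2, which can stand in for Clock in the forebrain, averaged 45.5 ± 1.73 CPM in cKO and 45.7 ± 4.18 CPM in control libraries, with a log2 fold change of -0.0073. Nfil3, a repressor at D-boxes, differed by 0.23 on the log2 scale (SE 0.13; edgeR, adjusted p 0.889), with its highest levels in cKO replicates 1 and 2, and by 0.14 without cKO replicate 2. Hlf, a relative of Dbp and Tef, was at 0.0086. Ciart, a repressor of the CLOCK and BMAL1 pair, was at -0.038, Bhlhe40 at 0.058 and Bhlhe41 at -0.015.

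The 5 protein-coding genes outside both lists whose log2 CPM was most like that of Dbp over the 8 libraries were E2f4, Pgpep1, Iglon5, Mmab and Lgi4, with Pearson's r of 0.97, 0.97, 0.97, 0.96 and 0.96. They were taken from 10154 genes with a mean of at least 10 CPM, of which 99 had r above 0.9. Their longest transcripts hold 54.0% to 60.2% GC, and with GC-content offsets their r with Dbp ranged from 0.63 (Pgpep1) to 0.90 (Iglon5).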

How the data were processed

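Whole-number read counts per Ensembl gene, 1 file per library and not normalized, were deposited by the authors. The submitters' processing notes name HISAT2 and GRCm39; no source used here gives the counter, its annotation or whether it used strand. The 5 entries that name no gene were left out, so 63.8% to 79.7% of listed reads were used. Symbols were matched by identifier for 51880 of 57186 genes.

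Genes passing filterByExpr (16766) were scaled by TMM and tested with edgeR 4.0.16 under R 4.3.3. The fit was a robust quasi-likelihood model of group, p-values were adjusted by Benjamini-Hochberg across all genes, and the threshold was 0.05. Log2 CPM used a prior count of 2. GC content and lengths came from GENCODE M21 transcripts (GRCm38, another build) and covered 98.2% of genes tested. Offsets were loess curves with a span of 0.5. DESeq2 1.42.0, limma 3.58.1, other filters and scalings, a replicate block and left-out libraries were alternatives. Intervals cover the spread between libraries.

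The 9 members, the gene lists and the tests were chosen with earlier results of these data known. Named were the members, 10 set genes of the pathway list, genes overlapping a member on the other strand with at least 1% of its reads, and the 5 genes most like Dbp. Camta1 was named after its values were seen. A gene of the pathway list that was counted is not reported here by name.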

Additional observations from a re-analysis of the deposited data

Results flagged for a closer look

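Among 40 groups of 4 libraries (cKO and control for Akap11, the 9 members and 10 pathway genes), 2 held a library set apart from its group, where chance flags about 1 group in 20. Ciart stood at 12.6 CPM in control replicate 4, against 8.09 to 8.47 CPM in the other control libraries. Rorb stood at 48.0 CPM in control replicate 1, against 39.2 to 39.8 CPM in the other control libraries. No group of the 9 members was set apart in this way.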

How the results depend on the processing

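Over 18 alternatives, none of the 9 members passed the adjusted test or reached an unadjusted p under 0.05 (lowest 0.0750). Of their 162 log2 fold changes, 13 changed sign, and the largest was 0.16 in size. The count of all genes past the threshold was 4; it was 7 with no low-count filter, 2 with the replicate number as a block, 2 without both libraries that stand apart, and 0 to 3 with 1 library left out. Akap11 missed the threshold without cKO replicate 2 (-0.47, edgeR adjusted p 0.104) and without control replicate 2 (-0.52, edgeR adjusted p 0.0616). Same-numbered libraries of the 2 groups correlated at 0.0052 to 0.049 in their deviations from group means. Those with different numbers correlated at -0.090 to 0.105. These values cannot tell whether the numbers pair the libraries.

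Log2 fold changes that changed sign were, without both libraries that stand apart, Clock (0.0080), Cry2 (-0.034), Nr1d1 (-0.027), Dbp (-0.025), Arntl (0.050), Npas2 (0.036) and Bhlhe41 (0.0072). With GC-content offsets they were Cry2 (-0.034), Nr1d1 (-0.0040) and Tef (-0.0074). Npas2 changed with library totals (0.0029) and Bhlhe41 with length offsets (0.0035). With 1 library left out, the values ran from -0.034 to 0.041 for Cry2, -0.014 to 0.12 for Nr1d1, -5.1e-05 to 0.15 for Dbp, -0.0057 to 0.048 for Tef, -0.065 to 0.020 for Arntl, -0.053 to 0.044 for Npas2, -0.00050 to 0.13 for Bhlhe40, -0.030 to 0.074 for Hlf, -0.10 to 0.14 for Ciart and -0.071 to 0.018 for Bhlhe41. The cause was not tested.

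No pair with Dbp passed under any alternative. Correlations with Dbp that changed sign were, without the 2 libraries farthest from its median, Tef (-0.75), Npas2 (-0.32), Ciart (0.78) and Bhlhe41 (0.23); with GC-content offsets, Nr1d2 (0.22), Per1 (-0.12), Ciart (0.15) and Bhlhe41 (0.50); with library totals, Ciart (0.065) and Bhlhe41 (0.074). With group means subtracted Ciart and Bhlhe41 were both at 0.014, and with length offsets Bhlhe40 was at -0.035 and Bhlhe41 at 0.14. With 1 library left out, r ran from -0.65 to 0.44 for Tef, -0.097 to 0.37 for Per3, -0.39 to 0.82 for Ciart, -0.18 to 0.34 for Bhlhe41, -0.13 to 0.38 for Bhlhe40 and -0.17 to 0.46 for Npas2. The length offsets, and the GC-content offsets and left-out libraries in these correlations, were added after seeing the data. Among the genes shown, read counting alone limits Ciart and Nfil3 most.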
